A study of Mus musculus with 9 samples.

Results

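The step from the corpus to the cauda of the mouse epididymis was examined in whole segments. The comparison used 6 of the 9 single-cell RNA-seq libraries of the series, 3 of the corpus and 3 of the cauda, which held 27559 of the 41328 barcodes that passed the limits. A barcode was kept with 300 to 4000 detected genes, at most 20000 UMIs (unique molecular identifiers, 1 per captured transcript), under 50% of UMIs from mitochondrial genes and under 20% from globin genes. Its UMIs were then summed over each library, without sorting cells into types.

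All groups were untreated C57BL/6 males (C57BL/6J in the study's methods), and the segments were cut from the same animals. One pool of 5 mice at postnatal day 42 (P42) and 2 pools of 5 mice at P56 each gave 1 corpus and 1 cauda library, so that corpus and cauda were compared within a pool. Each library holds a pool of animals, so the replicate is the pool and not the mouse or the cell. The caput libraries of the same pools entered only where named.

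The epididymis is a long coiled duct in which sperm leaving the testis become motile and able to fertilise. Its epithelium is made of principal cells, which secrete and absorb, clear cells, which acidify the lumen, and basal cells. The proximal segments are known for secreting proteins that coat sperm, and the cauda for storing sperm inside a thicker sleeve of smooth muscle that contracts at emission.

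The 6 libraries held 16438118 to 34426402 UMIs of nuclear genes from 4206 to 4872 barcodes, with a median of 3086 to 7644 UMIs per barcode. Any pair of these libraries shared 1 to 24 barcodes. Principal cell markers (Aqp9, Cftr, Crisp1 and others) summed to 15831, 48990 and 51864 CPM in the corpus and 11989, 94417 and 94276 CPM in the cauda, in the order of the P42, first P56 and second P56 pool, which is the order of all values below. CPM is a gene's UMI count scaled to the nuclear UMIs of its library, after TMM normalisation. Of the principal cell markers, 8 were tested (not Cftr), and 3 of these had positive log2 fold changes from corpus to cauda (median -0.13). The sum therefore does not stand for each marker. The cauda library of the P42 pool stood apart. Its fibroblast markers (Col1a1, Dcn, Pdgfra and others) summed to 39636 CPM, against 7119 CPM in the corpus of the same pool and 807 to 2276 CPM in the P56 libraries. Only 523 of its barcodes (11.6%) had under 1% of their UMIs from 71 markers of non-epithelial cells, against 74.5% of barcodes in the P42 corpus and 93.8% to 98% in the P56 libraries. Results are therefore also given without the P42 pool. In that pool, Col3a1 had a UMI in 65.3% of corpus and 97.8% of cauda barcodes, against 10.2% to 32.4% in the P56 libraries. Epcam had a UMI in 59.7% and 26.2% of corpus and cauda barcodes of the P42 pool. The 1% limit is a share of UMIs and does not sort cells into types. Sperm markers (Prm1, Tnp1, Ldhc and others) moved with the segments, with 860.3, 520.4 and 504 CPM in the corpus and 342, 24.3 and 58.4 CPM in the cauda.

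Fibroblast, macrophage, T cell, endothelial and erythroid markers were all highest in the 2 libraries of the P42 pool. Smooth muscle markers summed to 182, 96.8 and 69.7 CPM in the corpus and 542, 318 and 191 CPM in the cauda, higher in the cauda of every pool. Basal markers summed to 302, 207 and 245 CPM in the corpus and 181, 637 and 586 CPM in the cauda and clear markers to 769.5, 708 and 819 CPM in the corpus and 293, 894 and 869 CPM in the cauda. Both were lower in the cauda than in the corpus of the P42 pool and higher in the cauda of both P56 pools. In sums over a tissue, fewer cells of a type and less RNA per cell cannot be told apart.

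**Figure D1:**
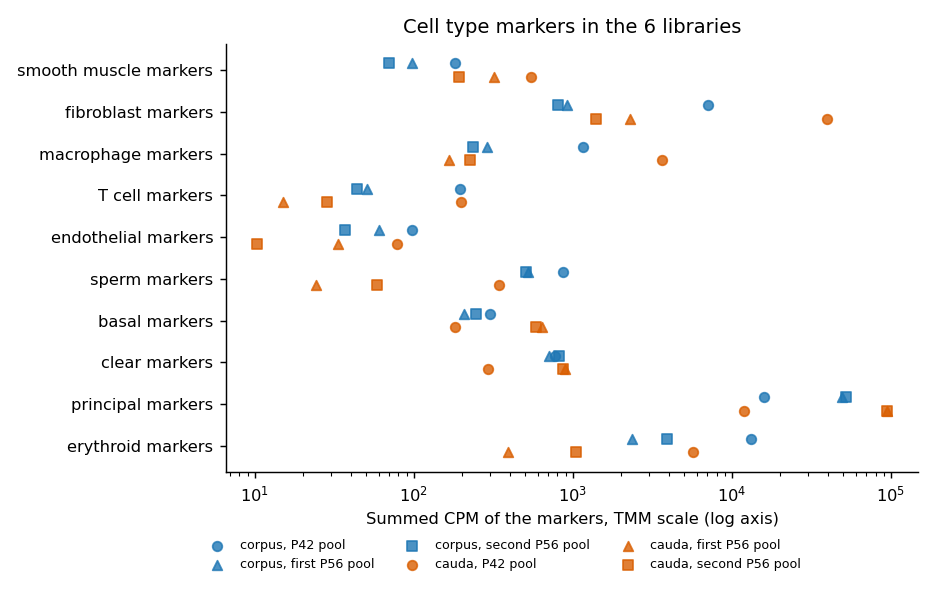
Summed CPM of 10 lists of cell type markers (log axis) in each of the 6 libraries, with the corpus in blue and the cauda in orange and 1 symbol per pool. The fibroblast markers of the P42 cauda lie at 39636 CPM, to the right of all other libraries, while its basal and clear markers (181 and 293 CPM) are the lowest.

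Protease inhibitors, a PATE protein and solute carriers were among the genes that rose from corpus to cauda, and beta-defensins of chromosome 2, the Kunitz inhibitors Spint4 and Spint5 and the lipocalin Lcn5 fell steeply. Of 16377 genes tested, 452 (2.76%) were higher in the cauda and 869 (5.31%) were higher in the corpus, by edgeR's quasi-likelihood test (adjusted p under 0.05, with a change of at least 1 on the log2 scale). All of these genes moved in the same direction in all 3 pools. Over all tested genes, the corpus and cauda values of 22.3% did not overlap, and this held for 283 of the 452 and 830 of the 869. The falls were the steeper ones, with 431 genes falling and 75 rising by a log2 of 3 or more. Among called genes with a mean of at least 50 CPM in the higher segment the directions were near even, with 104 higher in the cauda and 109 in the corpus. Gene models without a name made up 52 and 232 of the genes called higher in the cauda and in the corpus.

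More genes were called without the P42 pool and fewer without a P56 pool. Each fit without a pool rests on the 2 pools that remain, the fewest from which a spread between pools can be estimated. Without the P42 pool, 1187 (7.08%) of 16773 genes tested were higher in the cauda and 1911 (11.4%) in the corpus, and 430 of the 452 and 841 of the 869 were among them. The counts were 113 (0.657%) and 457 (2.66%) without the first P56 pool, and 119 (0.692%) and 360 (2.09%) without the second. When only barcodes with under 1% of non-epithelial markers were summed, 758 genes were higher in the cauda and 1217 in the corpus, which included 359 of the 452 and 719 of the 869. Without the pairing of segments by pool, 77 and 374 genes were called, and of the 15 leading genes in each direction 8 and 10 were. Of all calls, 34.2% were higher in the cauda, against 22.6% without a scaling factor.

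The 15 genes with the largest rise were led by Spink14, a Kazal-type serine protease inhibitor, which was close to absent from the corpus. Spink14 measured 0.0946, 0.0498 and 0.611 CPM in the corpus and 5.57, 444 and 426 CPM in the cauda (log2 fold change 10.06 ± 0.92 (SE), adjusted p = 0.0131), from 2, 1 and 12 UMIs in the corpus and 114, 10623 and 12259 in the cauda. Its level in the P42 cauda was far below that of both P56 caudas. Spink5, whose product restrains kallikreins in the skin, measured 31.5, 87.2 and 105 CPM in the corpus and 141, 1418 and 1571 CPM in the cauda (log2 fold change 3.38 ± 0.46 (SE), adjusted p = 0.0223). Serpine2 (protease nexin 1), an inhibitor of thrombin and urokinase, measured 70.2, 23.2 and 39.9 CPM in the corpus and 409.7, 1206 and 1351 CPM in the cauda (log2 fold change 4.50 ± 0.75 (SE), adjusted p = 0.0319). In all 3 inhibitor genes every cauda library exceeded every corpus library. Klk1b27, which encodes a tissue kallikrein, measured 3.97, 2.29 and 5.45 CPM in the corpus and 43.2, 194 and 205 CPM in the cauda (log2 fold change 5.02 ± 0.64 (SE), adjusted p = 0.0195), and its reads could be split with near-identical Klk1b copies.

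Pate6, a member of the PATE family of cysteine-rich secreted proteins, measured 28.3, 54.9 and 48.8 CPM in the corpus and 279, 2233 and 2483 CPM in the cauda (log2 fold change 4.80 ± 0.60 (SE), adjusted p = 0.0195). The rise was seen in every pool and was largest in the P56 pools. Cryba4, a beta-crystallin best known from the eye lens, measured 4.35, 3.23 and 1.83 CPM in the corpus and 26.6, 288 and 281 CPM in the cauda (log2 fold change 5.55 ± 1.11 (SE), adjusted p = 0.0459), and Smpx, named for its expression in muscle, measured 3.41, 2.44 and 13.5 CPM in the corpus and 62.8, 284 and 369.7 CPM in the cauda (log2 fold change 5.23 ± 0.60 (SE), adjusted p = 0.0175). The amino acid transporter gene Slc7a15 measured 2.55, 2.84 and 16.1 CPM in the corpus and 29.5, 162 and 217 CPM in the cauda (log2 fold change 4.33 ± 0.53 (SE), adjusted p = 0.0195). None of these 4 genes overlapped between the segments. Cryba4 was no longer called without the first P56 pool (log2 fold change 4.84).

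A pair of regulators of transcription rose together. Id1 measured 25.5, 21.6 and 29.4 CPM in the corpus and 157, 387 and 400.4 CPM in the cauda (log2 fold change 3.52 ± 0.36 (SE), adjusted p = 0.0149), and Id3 measured 132, 74.8 and 138 CPM in the corpus and 710.2, 839 and 915 CPM in the cauda (log2 fold change 2.88 ± 0.28 (SE), adjusted p = 0.0143). Both encode helix-loop-helix proteins without a DNA-binding region, which block other factors of that class and are known targets of BMP signalling. Inmt, a methyltransferase of indoleamines, was even across the caudas, with 24.9, 15.1 and 24.1 CPM in the corpus and 163, 155 and 175 CPM in the cauda (log2 fold change 2.97 ± 0.20 (SE), adjusted p = 0.0103). S100a8, a subunit of the calcium-binding protein calprotectin, measured 7.95, 1.64 and 8.25 CPM in the corpus and 57.5, 116 and 169 CPM in the cauda (log2 fold change 4.37 ± 0.68 (SE), adjusted p = 0.028). Ptgs2, which encodes cyclooxygenase 2, measured 10.9, 1.99 and 4.02 CPM in the corpus and 35.6, 56.1 and 76.1 CPM in the cauda (log2 fold change 3.57 ± 0.69 (SE), adjusted p = 0.0421), and it was no longer called without the second P56 pool (log2 fold change 3.18).

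In a pair of the 15 genes, the P42 cauda held the highest value. Cxcl14, a chemokine, measured 23.3, 11.7 and 4.99 CPM in the corpus and 201, 110.4 and 54.3 CPM in the cauda (log2 fold change 3.26 ± 0.16 (SE), adjusted p = 0.00821). Igfbp5, which binds insulin-like growth factors, measured 32.6, 10.7 and 5.09 CPM in the corpus and 266, 58.1 and 31.2 CPM in the cauda (log2 fold change 2.7 ± 0.18 (SE), adjusted p = 0.0103), and it was the only gene of the 15 whose segments overlapped, because the second P56 cauda lay below the P42 corpus. These values moved with the fibroblast markers of the P42 cauda. In barcodes with under 1% of non-epithelial markers the log2 fold changes were 2.62 for Cxcl14 and 1.84 for Igfbp5. All 15 genes were also called without the P42 pool, by DESeq2 and without a scaling factor.

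**Figure D2:**
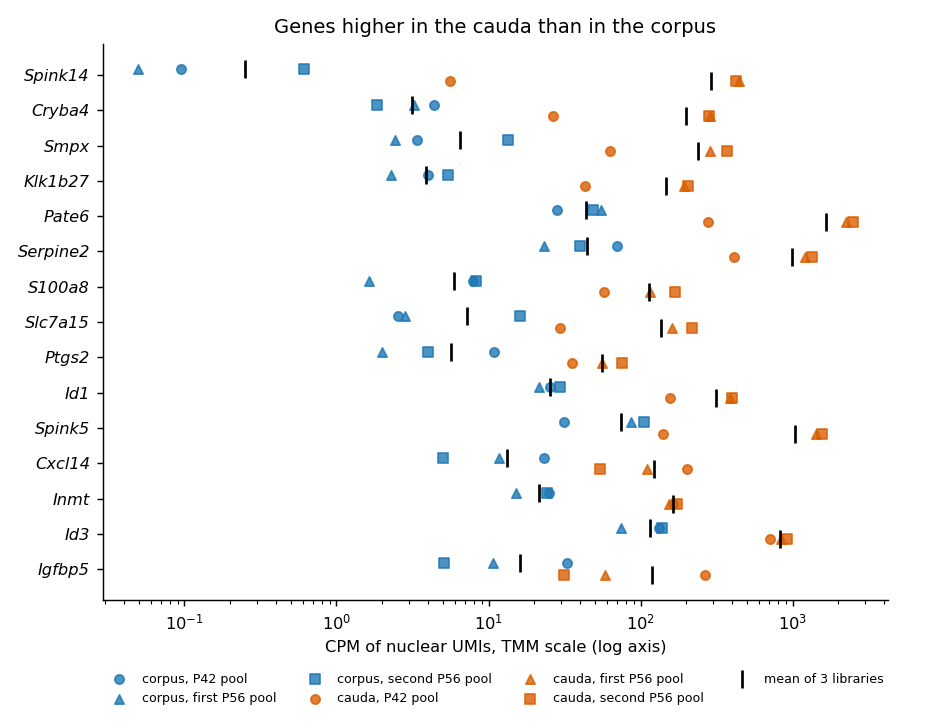
CPM of nuclear UMIs (log axis) of the 15 genes with the largest rise from corpus to cauda, 1 symbol per library, with the corpus in blue, the cauda in orange and the mean of the 3 libraries of a segment as a black bar. In every pool each gene was higher in the cauda, and Spink14 rose from under 1 CPM to 5.57, 444 and 426 CPM.

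The largest fall was that of Spint4, a secreted protease inhibitor of the Kunitz type. Spint4 measured 1908, 5884 and 2565 CPM in the corpus and 7.28, 6.15 and 4.9 CPM in the cauda (log2 fold change -8.99 ± 0.57 (SE), adjusted p = 0.00891). The neighbouring gene Spint5, with the same kind of domain, measured 1011, 2197 and 988 CPM in the corpus and 3.03, 10.4 and 3.13 CPM in the cauda (log2 fold change -8.12 ± 0.31 (SE), adjusted p = 0.00821). Both are in a stretch of chromosome 2 that holds many Wfdc and Spint genes, with Spint4 at chr2:164698501-164702448 and Spint5 at chr2:164715305-164718068 of GRCm38. Wfdc13, a whey acidic protein family gene at chr2:164685107-164687706, measured 4024, 8750 and 7141 CPM in the corpus and 105, 775 and 453 CPM in the cauda (log2 fold change -4.23 ± 0.49 (SE), adjusted p = 0.0175). The P42 cauda was the lowest of the caudas. The Kazal inhibitor gene Spink11 measured 866, 2661 and 807 CPM in the corpus and 11.9, 24.8 and 28.3 CPM in the cauda (log2 fold change -5.93 ± 0.50 (SE), adjusted p = 0.0124).

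Of the 15 genes with the largest fall, 6 were beta-defensins, small cationic peptides that kill microbes and in the epididymis also coat sperm. Defb23 measured 1286, 2865 and 1590 CPM in the corpus and 3.42, 10.8 and 2.29 CPM in the cauda (log2 fold change -8.66 ± 0.44 (SE), adjusted p = 0.00821). Defb22 measured 1235, 3523 and 3458 CPM in the corpus and 3.61, 50.1 and 2.92 CPM in the cauda (log2 fold change -8.23 ± 1.04 (SE), adjusted p = 0.0195). The first P56 cauda held most of the Defb22 that remained. Defb30 measured 753, 1608 and 415 CPM in the corpus and 6.84, 6.4 and 6.61 CPM in the cauda (log2 fold change -6.90 ± 0.52 (SE), adjusted p = 0.0103), and its cauda libraries differed by under 1 CPM. Defb29, Defb21 and Defb26 fell with log2 fold changes of -6.58 ± 0.33, -6.51 ± 0.48 and -5.53 ± 0.27 (SE), from means of 312 ± 185, 190 ± 168 and 185 ± 116 CPM in the corpus (SD, n = 3).

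Lcn5, which encodes a retinoic acid carrier secreted into the epididymal lumen, measured 918, 2814 and 617 CPM in the corpus and 8.01, 6.69 and 7.13 CPM in the cauda (log2 fold change -7.31 ± 0.62 (SE), adjusted p = 0.0124). Its cauda level was the same in all pools to within a few CPM, while the corpus of the first P56 pool was several times that of the second. Car4, a carbonic anhydrase anchored to the apical membrane, measured 322, 643 and 592 CPM in the corpus and 1.85, 31.8 and 2.29 CPM in the cauda (log2 fold change -6.60 ± 0.93 (SE), adjusted p = 0.0233). Here the first P56 cauda stood above the other caudas. Epp13 measured 534, 1140 and 320.2 CPM in the corpus and 2.93, 1.67 and 1.6 CPM in the cauda (log2 fold change -8.16 ± 0.54 (SE), adjusted p = 0.0103). Glb1l3, related to beta-galactosidase, measured 87.2, 297 and 295 CPM in the corpus and 3.37, 17.8 and 13.4 CPM in the cauda (log2 fold change -4.40 ± 0.21 (SE), adjusted p = 0.00821), and Ly6l, of the Ly6 family of membrane-anchored proteins, measured 25.8, 61.3 and 65.3 CPM in the corpus and 0.195, 1.71 and 0.243 CPM in the cauda (log2 fold change -6.44 ± 0.61 (SE), adjusted p = 0.0134). In all 15 genes every corpus library exceeded every cauda library. All 15 were called without any 1 of the 3 pools, by DESeq2, without a scaling factor and in barcodes with under 1% of non-epithelial markers.

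**Figure D3:**
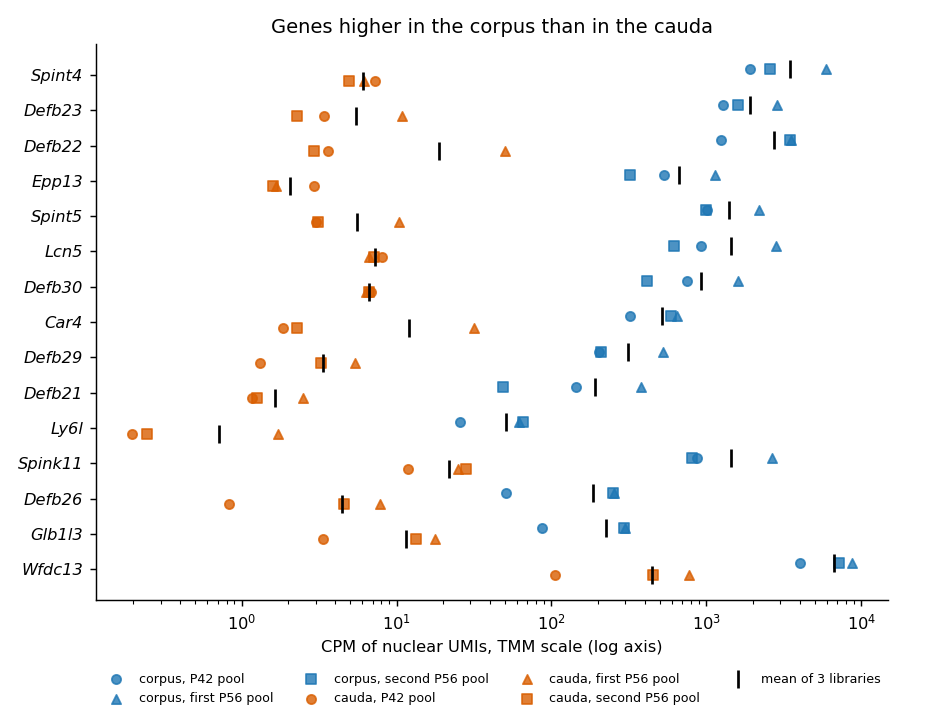
CPM of nuclear UMIs (log axis) of the 15 genes with the largest fall from corpus to cauda, with symbols and colours as for the rising genes. The segments did not overlap in any of them, and Spint4 fell from 1908, 5884 and 2565 CPM to 7.28, 6.15 and 4.9 CPM.

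The promoters of 5 of these genes are shown as examples, chosen after the matches were seen, because they hold either motif searched and stand for both directions. RefSeq gave promoters for 12 of the 15 rising and 12 of the 15 falling genes on GRCm38.p6, and 250 bases before each start were searched on both strands for TATAAA, the core of the TATA box, and AGAACA, which makes up each arm of the androgen receptor's site. TATAAA was in 3 of the 12 rising and 3 of the 12 falling genes (25% each) against 13% of all 27025 promoters and 7.35% of the 11729 promoters of genes tested. AGAACA was in 2 (16.7%) and 4 (33.3%), against 16.2% of all promoters and 11.5% of those of genes tested. Over all 335 rising genes with a promoter the shares were 10.7% for TATAAA and 13.7% for AGAACA, and over 606 falling genes they were 12.9% and 18.3%, which lies above the shares of the genes tested for both motifs and, but for AGAACA in the falling genes, below those of all promoters. Matches are in capitals, and TTTATA and TGTTCT are the motifs read on the other strand.
Defb23 (chr2:152464621-152464870, minus strand): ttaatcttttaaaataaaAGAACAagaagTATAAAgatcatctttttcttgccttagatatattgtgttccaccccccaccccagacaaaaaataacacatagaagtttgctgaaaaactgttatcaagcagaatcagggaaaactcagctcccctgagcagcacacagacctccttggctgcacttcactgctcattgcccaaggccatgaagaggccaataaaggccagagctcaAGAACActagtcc
Lcn5 (chr2:25657702-25657951, plus strand): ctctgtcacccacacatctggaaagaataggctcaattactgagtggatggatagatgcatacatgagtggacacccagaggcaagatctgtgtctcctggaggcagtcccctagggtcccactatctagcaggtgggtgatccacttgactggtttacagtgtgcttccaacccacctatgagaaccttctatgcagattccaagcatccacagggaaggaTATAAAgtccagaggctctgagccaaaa
Pate6 (chr9:35790113-35790362, minus strand): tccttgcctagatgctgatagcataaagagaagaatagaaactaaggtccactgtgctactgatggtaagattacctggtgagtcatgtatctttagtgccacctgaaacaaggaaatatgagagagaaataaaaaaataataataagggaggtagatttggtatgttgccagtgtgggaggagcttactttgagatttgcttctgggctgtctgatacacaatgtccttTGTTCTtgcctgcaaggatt
S100a8 (chr3:90668821-90669070, plus strand): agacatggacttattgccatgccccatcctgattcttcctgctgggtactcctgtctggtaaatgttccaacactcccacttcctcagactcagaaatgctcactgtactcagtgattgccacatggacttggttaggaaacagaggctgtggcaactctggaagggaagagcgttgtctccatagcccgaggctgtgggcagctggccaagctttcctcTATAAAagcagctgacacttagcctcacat
Slc7a15 (chr12:8599067-8599316, minus strand): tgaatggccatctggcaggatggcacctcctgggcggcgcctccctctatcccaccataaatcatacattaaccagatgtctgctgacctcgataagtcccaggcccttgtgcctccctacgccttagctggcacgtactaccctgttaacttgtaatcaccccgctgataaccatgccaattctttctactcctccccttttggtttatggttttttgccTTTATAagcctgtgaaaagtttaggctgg

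TATAAA began at base -28 from the start in Lcn5, which fell to 7.28 CPM, and at base -30 in S100a8, which rose to 114 CPM (means of 3 libraries). In Slc7a15, which rose to 136 CPM, it stood on the other strand, from base -29. The motif was in genes of both directions. In Defb23, 2 copies of AGAACA began at -232 and -13 and TATAAA at -221, and in Pate6 AGAACA stood on the other strand at -20. The windows of Spint4, Spint5, Defb22 and Serpine2 held neither set of letters. A match is a run of letters and was not tested as a site.

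The caput libraries, on a scale of their own over 9 libraries, divided some of the falling genes. Defb22 (1.1, 3.7 and 12.2 CPM in the caput), Car4 (3.81, 3.11 and 5.4 CPM), Ly6l (0.213, 0.236 and 0.819 CPM), Defb26 (0.213, 0.709 and 0.759 CPM) and Glb1l3 (1.22, 2.29 and 4.7 CPM) were low in the caput as well as in the cauda, with their high values in the corpus alone. Lcn5 (1835, 6026 and 5911 CPM), Epp13 (594, 1422 and 1394 CPM), Defb30 (954, 2507 and 2608 CPM) and Spink11 (954, 3117 and 3434 CPM) were high from the caput through the corpus. Spint4 (99.1, 356 and 633 CPM), Defb23 (142, 377 and 458 CPM), Spint5 (33.2, 119 and 196 CPM) and Wfdc13 (47.5, 165 and 185 CPM) lay between, each below the corpus of its pool. Among the rising genes, Pate6 (1135, 2002 and 1308 CPM), Spink5 (292, 741 and 625 CPM) and Cryba4 (501, 683 and 494 CPM) were higher in every caput library than in the corpus of the same pool, and so were low in the corpus between high values on either side. Spink14 (0.0609, 0 and 0.486 CPM), Smpx (0.731, 0.551 and 0.759 CPM) and Slc7a15 (0.67, 0.197 and 0.546 CPM) were near 0 in the caput. These caput levels are a description, without a test.

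More beta-defensins fell than rose. Of 36 tested, 14 fell (5.31% of all genes did), 1 rose (2.76% of all) and 21 did not pass the test, with a median log2 fold change of -1.02 against 0.02 over all 16377 genes. The summed CPM of the whole list was 19390, 42893 and 37342 in the corpus and 7496, 46444 and 37373 in the cauda. The sum was thus lower in the cauda of the P42 pool only. Leaving out the P42, first P56 and second P56 pool in turn, 20, 10 and 13 fell and 7, 1 and 1 rose. The shares of all genes to set beside counts without each pool, here and for the lists below, were 11.4%, 2.66% and 2.09% fallen and 7.08%, 0.657% and 0.692% risen. By position, 7 of the 11 genes of the chromosome 2 cluster (chr2:152459055-152623053) fell, which were Defb19, Defb20, Defb21, Defb22, Defb23, Defb26 and Defb29. On chromosome 8, 5 of 18 fell (Defb13, Defb37, Defb38, Defb39 and Spag11a) and Defb6 rose, and on chromosome 14, Defb30 and Defb42 fell of 5. Defb37 measured 2048, 4898 and 4243 CPM in the corpus and 214, 1429 and 991 CPM in the cauda (log2 fold change -2.37 ± 0.40 (SE), adjusted p = 0.0324), Defb38 measured 1387, 2975 and 2845 CPM in the corpus and 281, 1285 and 854 CPM in the cauda (log2 fold change -1.75 ± 0.31 (SE), adjusted p = 0.0362) and Defb39 measured 969, 2531 and 1756 CPM in the corpus and 79.7, 406 and 305 CPM in the cauda (log2 fold change -2.92 ± 0.32 (SE), adjusted p = 0.0164). The P42 cauda was lowest for all 3, and the segments did not overlap. Without the first P56 pool, Defb37 and Defb38 did not pass (log2 fold change -2.70 and -2.04), and without the second P56 pool, Defb37 and Defb38 did not pass (log2 fold change -2.53 and -1.77).

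The other inhibitors of proteases moved both ways. Of 35 Wfdc, Kazal and Kunitz genes tested, 10 fell and 4 rose (5.31% and 2.76% of all genes tested), with a median log2 fold change of -0.45, and the counts without each pool in turn were 12, 8 and 7 fallen and 10, 3 and 3 risen. Without the P42 pool the median was 0.02. The summed CPM of this list was 31580, 81044 and 72634 in the corpus and 12043, 88330 and 87349 in the cauda, higher in both P56 caudas. Among the 19 genes of chromosome 2, 6 fell (Eppin, Spint4, Spint5, Wfdc11, Wfdc13 and Wfdc15a) and 2 rose (Wfdc3 and Wfdc6b). Among the 8 listed genes of chromosome 18, Spink14 and Spink5 rose and Spink11 and Spink12 fell. Of 23 serpins, 2 rose (2.76% of all genes), which were Serpine2 and Serpina3n, an inhibitor of the acute phase, with a median of 0.49. Without each pool in turn, 5, 1 and 2 serpins rose and 2, 0 and 0 fell. Serpina3n measured 21.9, 3.23 and 3.16 CPM in the corpus and 38, 9.2 and 7.09 CPM in the cauda (log2 fold change 1.14 ± 0.20 (SE), adjusted p = 0.0369), so that both P42 libraries were above all P56 libraries. Cystatins, which inhibit cysteine proteases, did not pass the test in any of 8 genes by edgeR (median 0.08), of which 2 had an unadjusted p under 0.05, and DESeq2 called 1. Cst3, the secreted cystatin C, measured 735, 538 and 548 CPM in the corpus and 1205, 914 and 816 CPM in the cauda (log2 fold change 0.68 ± 0.20 (SE), adjusted p = 0.104), and the intracellular Cstb measured 234, 315 and 321 CPM in the corpus and 199, 459 and 419.6 CPM in the cauda (log2 fold change 0.23 ± 0.22 (SE), adjusted p = 0.585). The call was lost for Serpina3n without the first P56 pool (log2 fold change 0.95), and for Serpina3n without the second P56 pool (log2 fold change 1.13). In barcodes under 1% of non-epithelial markers, Serpina3n was not called (log2 fold change 0.91). Without a scaling factor, Serpina3n was not called (log2 fold change 0.96).

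Pate genes moved both ways. On chromosome 9, Pate1, Pate2, Pate3 and Pate4 fell and Pate6 and Pate9 rose. Pate1 measured 974, 2647 and 2468 CPM in the corpus and 121, 477 and 463 CPM in the cauda (log2 fold change -2.63 ± 0.26 (SE), adjusted p = 0.014), and Pate2 measured 352, 794 and 812 CPM in the corpus and 20.6, 171 and 145 CPM in the cauda (log2 fold change -2.91 ± 0.44 (SE), adjusted p = 0.0263). Ly6a, a surface antigen of stem and immune cells, rose to even cauda levels of 1194, 1204 and 1298 CPM from 442, 233 and 294 CPM in the corpus (log2 fold change 1.98 ± 0.27 (SE), adjusted p = 0.0222). Ly6a and Ly6c1 are related genes, and sharing of reads between them was not tested. Over all 28 Ly6, Pate and Lypd genes tested, 7 fell and 5 rose (5.31% and 2.76% of all genes), with a median of -0.07, and without each pool in turn 9, 7 and 8 fell and 11, 3 and 3 rose. Ly6a missed the threshold without the first P56 pool (log2 fold change 1.76), and Ly6a did so without the second P56 pool (log2 fold change 1.89).

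Secreted proteins of the lumen, several of which bind sperm, fell in 7 cases. Of 25 tested, 7 fell (5.31% of all genes) and 1 rose (2.76%), the rise being that of Sva, with a median of -0.15. Without each pool in turn 7, 5 and 5 fell and 3, 0 and 0 rose. The summed CPM of the whole list was 28895, 79921 and 83374 in the corpus and 18735, 122043 and 125295 in the cauda, so the sum was higher in both P56 caudas. Npc2, a cholesterol carrier, measured 3078, 8129 and 7412 CPM in the corpus and 695, 1872 and 1502 CPM in the cauda (log2 fold change -2.19 ± 0.29 (SE), adjusted p = 0.021). Rnase9, an epididymal member of the ribonuclease A family, measured 867, 3002 and 1775 CPM in the corpus and 18.4, 219 and 188 CPM in the cauda (log2 fold change -4.16 ± 0.55 (SE), adjusted p = 0.0207). Bsph2, a binder of seminal plasma type, measured 769.5, 2382 and 2411 CPM in the corpus and 29.4, 442 and 234 CPM in the cauda (log2 fold change -3.49 ± 0.51 (SE), adjusted p = 0.0253), and Crisp4, a cysteine-rich secretory protein, measured 95, 354 and 358 CPM in the corpus and 9.28, 94.7 and 75.5 CPM in the cauda (log2 fold change -2.48 ± 0.33 (SE), adjusted p = 0.0207). For all 4 the P42 cauda was the lowest of the caudas. Of 8 lipocalins, Lcn5 fell and Lcn12 rose (5.31% and 2.76% of all genes, median 0.00), and without the P42 pool 2 fell and 3 rose. Lcn12, also a binder of retinoic acid, measured 70.8, 126 and 170.2 CPM in the corpus and 125, 594 and 658 CPM in the cauda (log2 fold change 1.68 ± 0.33 (SE), adjusted p = 0.0429). Lcn12 and Npc2 fell short of the call without the first P56 pool (log2 fold change 1.36 and -2.25). Lcn12 and Npc2 fell short of the call without the second P56 pool (log2 fold change 1.52 and -2.14).

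Of 35 genes for the proton pump and for luminal acidification, 2 fell and 2 rose, against 5.31% and 2.76% of all genes tested, with a median of -0.03. Beside Car4, Atp6ap1l fell, at under 2 CPM in every library. Slc9a3, the apical sodium-proton exchanger, measured 1.51, 1.59 and 3.36 CPM in the corpus and 4.69, 12 and 15.6 CPM in the cauda (log2 fold change 2.26 ± 0.31 (SE), adjusted p = 0.022), and Car14, a membrane carbonic anhydrase, measured 0.284, 0.249 and 0.204 CPM in the corpus and 1.71, 4.52 and 4.55 CPM in the cauda (log2 fold change 3.73 ± 0.49 (SE), adjusted p = 0.0204). Each of the 3 cauda libraries exceeded all corpus libraries in both genes. Of 32 genes for water and ions, 5 fell and 1 rose, beside the same shares, with a median of 0.13, and 5, 3 and 3 fell and 7, 1 and 1 rose without each pool. The inward-rectifier potassium channel gene Kcnj16 measured 12.2, 20.2 and 11.5 CPM in the corpus and 0.732, 0.293 and 0.174 CPM in the cauda (log2 fold change -5.26 ± 0.49 (SE), adjusted p = 0.0131), Kcne3, a subunit that modifies potassium channels, measured 8.56, 12.8 and 11.7 CPM in the corpus and 1.9, 1.67 and 0.973 CPM in the cauda (log2 fold change -2.88 ± 0.34 (SE), adjusted p = 0.0177) and the aquaporin gene Aqp6 measured 4.78, 6.82 and 2.65 CPM in the corpus and 0.0488, 0.167 and 0.0695 CPM in the cauda (log2 fold change -5.53 ± 0.41 (SE), adjusted p = 0.0103). Fxyd2, a regulator of the sodium pump, rose, with 5.82, 2.39 and 2.09 CPM in the corpus and 23.4, 8.15 and 13.2 CPM in the cauda (log2 fold change 2.14 ± 0.24 (SE), adjusted p = 0.0175). Of 18 carriers of carnitine, osmolytes and amino acids, 3 rose (2.76% of all genes), with a median of 0.41. Slc1a1, a glutamate transporter, measured 6.91, 19 and 34.2 CPM in the corpus and 15.8, 52.3 and 72.2 CPM in the cauda (log2 fold change 1.25 ± 0.15 (SE), adjusted p = 0.0195), and the creatine transporter gene Slc6a8 and the amino acid carrier gene Slc7a8 rose by log2 1.75 ± 0.25 and 1.20 ± 0.20. With either P56 pool left out, no carrier of this list passed edgeR's test (Slc7a15, described above, is not in it), while 10 of the 18 had an unadjusted p under 0.05 with all pools and DESeq2 called 4 risen and 1 fallen. Without the first P56 pool, Slc9a3 did not pass (log2 fold change 1.91), and without the second P56 pool, Slc9a3, Car14 and Atp6ap1l did not pass (log2 fold change 2.27, 3.37 and -5.29). In barcodes under 1% of non-epithelial markers, and also without barcodes of 1% or more sperm markers, Atp6ap1l was too low to test. Calls also fell away in barcodes under 1% of non-epithelial markers for Slc7a8 (log2 fold change 0.89).

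Of 23 Hox genes tested, which set position along the body axis, Hoxa10, Hoxa11 and Hoxd10 rose (2.76% of all genes did) and the median log2 fold change was -0.01. In a split by number made after the values were seen, groups 10 and above held 3 called genes of 4 (median 2.97), and groups 1 to 9 held no gene of 19 called by edgeR (median -0.05). Hoxc10, the other gene of the higher groups, did not pass (log2 fold change 1.22, adjusted p = 0.207). Hoxa11 measured 0.331, 0 and 0.0509 CPM in the corpus and 26.4, 1.21 and 1.01 CPM in the cauda (log2 fold change 6.06 ± 0.51 (SE), adjusted p = 0.0124). Hoxa10 measured 4.87, 1.34 and 1.48 CPM in the corpus and 61.1, 7.32 and 3.93 CPM in the cauda (log2 fold change 2.58 ± 0.47 (SE), adjusted p = 0.0377), and Hoxd10 measured 0.946, 0.199 and 0.102 CPM in the corpus and 8.45, 2.17 and 1.43 CPM in the cauda (log2 fold change 3.35 ± 0.34 (SE), adjusted p = 0.0148). The P42 cauda held by far the highest values of all 3 genes, and it also held the highest fibroblast markers, whose part in these values was not tested. Without the P42 pool the log2 fold changes were 5.19, 1.95 and 3.55, and all 3 were called. In barcodes with under 1% of non-epithelial markers they were 4.62, 2.15 and 2.44, with Hoxd10 no longer called. Among the 19 of groups 1 to 9, 2 had an unadjusted p under 0.05 and DESeq2 called 1. The call was lost for Hoxa10 without the first P56 pool (log2 fold change 2.61). Hoxa10 did not reach the call without a scaling factor (log2 fold change 2.40).

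Of 23 transcription factors of the epithelium and its lineage, 2 rose and 1 fell (2.76% and 5.31% of all genes), with a median of 0.50. Gata2, a zinc finger factor, measured 11.7, 2.79 and 2.44 CPM in the corpus and 64.8, 20.8 and 24.7 CPM in the cauda (log2 fold change 2.88 ± 0.23 (SE), adjusted p = 0.0111). Nr2f2, an orphan nuclear receptor that is strong in stroma, measured 73.7, 33.3 and 34.2 CPM in the corpus and 188, 61.6 and 58 CPM in the cauda (log2 fold change 1.003 ± 0.18 (SE), adjusted p = 0.0363). Pax8, a factor of the Wolffian duct lineage, measured 55.5, 69.4 and 65.1 CPM in the corpus and 15.6, 29.8 and 25.9 CPM in the cauda (log2 fold change -1.46 ± 0.18 (SE), adjusted p = 0.0195). Of 16 genes of androgen and estrogen signalling, 2 fell (5.31% of all genes) and the median was 0.07. Srd5a1, a steroid reductase that makes dihydrotestosterone, measured 33.9, 55.5 and 59.9 CPM in the corpus and 16.9, 13.6 and 10.8 CPM in the cauda (log2 fold change -1.84 ± 0.31 (SE), adjusted p = 0.0334). Without the P42 pool 3 genes of this list fell. Nr2f2 missed the threshold without the P42 pool (log2 fold change 0.83), and Nr2f2 and Srd5a1 did so without the first P56 pool (log2 fold change 1.04 and -1.76), and Nr2f2, Pax8 and Srd5a1 did so without the second P56 pool (log2 fold change 1.11, -1.53 and -1.53). In barcodes under 1% of non-epithelial markers, Nr2f2 was not called (log2 fold change 0.89). Without a scaling factor, Nr2f2 was not called (log2 fold change 0.82). Without barcodes of 1% or more sperm markers, Nr2f2 was not called (log2 fold change 0.99).

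None of 14 keratins (median 0.34) and none of 27 junction genes (median -0.18) passed edgeR's test. An unadjusted p under 0.05 was found for 4 keratins and 4 junction genes, and DESeq2 called 3 keratins risen and 1 fallen and 2 junction genes risen. Krt8, a keratin of simple epithelia, measured 340.2, 636 and 751 CPM in the corpus and 131, 1107 and 1162 CPM in the cauda, and its partner Krt18 measured 338, 605 and 683 CPM in the corpus and 90.8, 761 and 779 CPM in the cauda. Epcam, an epithelial adhesion molecule, measured 350.2, 449 and 528 CPM in the corpus and 123, 743 and 765 CPM in the cauda, and the claudin gene Cldn7 measured 276, 529 and 538 CPM in the corpus and 99.5, 751 and 697 CPM in the cauda. In all 4 the P42 cauda was the lowest library, as it was for the basal and clear markers, and both P56 caudas were above their corpus. The fitted log2 fold changes were 0.04 ± 0.50, -0.43 ± 0.50, -0.05 ± 0.50 and -0.18 ± 0.45 (SE), and without the P42 pool they were 0.72, 0.27, 0.64 and 0.45. Without that pool, 7 of 14 keratins and 4 of 26 junction genes rose and 1 keratin fell, where 7.08% and 11.4% of all genes rose and fell. Of 6 genes of the cornified envelope, 1 rose (2.76% of all genes), Lor (loricrin), with 0.615, 1.04 and 1.27 CPM in the corpus and 1.56, 4.77 and 4.28 CPM in the cauda (log2 fold change 1.78 ± 0.32 (SE), adjusted p = 0.0362), and without the P42 pool 7 of 9 rose. The median of the 6 was 1.80. Lor fell short of the call without the first P56 pool (log2 fold change 1.53). Lor fell short of the call without the second P56 pool (log2 fold change 1.78).

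Of 28 smooth muscle contractile genes tested, 12 rose (2.76% of all genes) and 16 did not pass, with a median log2 fold change of 1.11, and 13, 5 and 4 rose without each pool in turn. Acta2, smooth muscle actin, measured 81.9, 51.3 and 35.9 CPM in the corpus and 183, 178 and 90.7 CPM in the cauda (log2 fold change 1.43 ± 0.19 (SE), adjusted p = 0.0204). Myl9, a myosin light chain, measured 38.9, 17.3 and 11.6 CPM in the corpus and 108, 68.1 and 35.7 CPM in the cauda (log2 fold change 1.69 ± 0.17 (SE), adjusted p = 0.0143), and Tpm2, a tropomyosin, measured 23, 7.96 and 5.14 CPM in the corpus and 85, 29.6 and 22.4 CPM in the cauda (log2 fold change 1.96 ± 0.15 (SE), adjusted p = 0.0103). Csrp1, a LIM protein bound to actin, measured 56, 38.5 and 47.9 CPM in the corpus and 108, 101 and 96.2 CPM in the cauda (log2 fold change 1.11 ± 0.16 (SE), adjusted p = 0.0248). Each rose in every pool, while Myl9 and Tpm2 overlapped between segments because of the P42 corpus. Barcodes with 1% or more of their UMIs from smooth muscle markers numbered 14, 5 and 3 in the corpus and 51, 2 and 0 in the cauda. Acta2 had a UMI in 13.55%, 11.27% and 8.82% of corpus and 21.02%, 30.85% and 25.82% of cauda barcodes. Which cell types held these UMIs was not tested. Without the first P56 pool, Acta2 and Csrp1 did not pass (log2 fold change 1.23 and 0.96), and without the second P56 pool, Acta2 and Csrp1 did not pass (log2 fold change 1.47 and 1.16). Calls also fell away in barcodes under 1% of non-epithelial markers for Acta2 and Csrp1 (log2 fold change 1.18 and 0.91), and without a scaling factor for Csrp1 (log2 fold change 0.93). Acta2, unlike Csrp1, is among the markers by which those barcodes were limited, so its value there is not independent of the limit.

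Of 10 receptors through which nerves act on the duct, 3 rose, 2 fell (2.76% and 5.31% of all genes) and 5 did not pass, with a median of 0.67. P2rx1, the purinergic receptor of contracting ducts, measured 0.615, 0.497 and 0.866 CPM in the corpus and 6.2, 5.81 and 8.62 CPM in the cauda (log2 fold change 3.38 ± 0.26 (SE), adjusted p = 0.0103). Chrm3, a muscarinic receptor, measured 2.41, 3.68 and 3.82 CPM in the corpus and 6.3, 8.36 and 7.58 CPM in the cauda (log2 fold change 1.18 ± 0.21 (SE), adjusted p = 0.0373). P2rx2 moved the opposite way, with 14, 19.8 and 13.2 CPM in the corpus and 0.977, 2.63 and 4.24 CPM in the cauda (log2 fold change -2.73 ± 0.45 (SE), adjusted p = 0.0318). The segments did not overlap in any of these 3 genes. Without the first P56 pool 1 receptor rose, and without the second 1 rose and 1 fell. The call was lost for Chrm3 and P2rx2 without the first P56 pool (log2 fold change 1.16 and -2.67), and for Chrm3 without the second P56 pool (log2 fold change 1.27). Chrm3 did not reach the call without a scaling factor (log2 fold change 0.99).

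Of 31 collagen genes, 7 rose (2.76% of all genes) and 24 did not pass, with a median of 1.31. Without each pool in turn, 15, 1 and 5 collagen genes rose and 2, 0 and 0 fell. Col3a1, a fibrillar collagen, measured 1216, 83.8 and 62.9 CPM in the corpus and 7549, 309 and 176 CPM in the cauda (log2 fold change 2.00 ± 0.32 (SE), adjusted p = 0.0297). Col6a1 and Col6a2, chains of collagen VI, rose by log2 1.76 ± 0.35 and 1.98 ± 0.41, and the basement membrane chain Col4a5 by 1.62 ± 0.31. In these genes the P42 cauda was several times the P42 corpus and the P42 corpus was above every P56 library, so the segments overlapped, although each pool rose. Fibroblast markers behaved likewise, with a median of 1.29 and 1 of 8 called, Col3a1. Without the P42 pool, 3 of the 8 were called, and in barcodes under 1% of non-epithelial markers 4 were. These 8 are among the markers by which those barcodes were limited, so the last count is not independent of the limit. Of the 10 smooth muscle markers, 7 rose, against 2.76% of all genes (median 1.37). Col3a1, Col6a1, Col6a2 and Col4a5 missed the threshold without the first P56 pool (log2 fold change 2.04, 1.75, 2.13 and 1.66), and Col3a1 did so without the second P56 pool (log2 fold change 2.25). Without a scaling factor, Col6a1, Col6a2 and Col4a5 were not called (log2 fold change 1.57, 1.79 and 1.44). Without barcodes of 1% or more sperm markers, Col6a2 was not called (log2 fold change 1.96).

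Of the genes of immune defence, none of 9 class II histocompatibility genes passed the test by edgeR or DESeq2, none had an unadjusted p under 0.05 and the median was -0.22. Cd74, the invariant chain, measured 1335, 376 and 342 CPM in the corpus and 2670, 188 and 325 CPM in the cauda, and H2-Aa measured 405, 103 and 91.3 CPM in the corpus and 868, 37.4 and 65 CPM in the cauda. Both were higher in the cauda of the P42 pool and lower in that of the P56 pools, as were the summed macrophage markers (1152, 289 and 236 CPM in the corpus and 3611, 167 and 226 CPM in the cauda), whose part was not tested. Of 19 complement genes, 2 rose, against 2.76% of all genes (median 0.61). Cd46, a membrane cofactor known from sperm, measured 0.331, 0.348 and 0.509 CPM in the corpus and 1.02, 2.22 and 3.2 CPM in the cauda (log2 fold change 2.34 ± 0.39 (SE), adjusted p = 0.0326). Of 26 chemokines, 4 rose, against the same 2.76% (median 0.49), and without the P42 pool 5 rose and 6 fell. Cxcl10, induced by interferon, measured 21.7, 11.4 and 14.2 CPM in the corpus and 38.1, 50.4 and 42.5 CPM in the cauda (log2 fold change 1.51 ± 0.28 (SE), adjusted p = 0.0402), Cxcl16 measured 22.4, 8.01 and 8.51 CPM in the corpus and 38.1, 22.9 and 22.6 CPM in the cauda (log2 fold change 1.23 ± 0.21 (SE), adjusted p = 0.0329) and the stromal chemokine gene Cxcl12 measured 282, 62.3 and 57.5 CPM in the corpus and 952, 139 and 98.8 CPM in the cauda (log2 fold change 1.23 ± 0.24 (SE), adjusted p = 0.0441). With either P56 pool left out, 1 chemokine was called. Cxcl12 fell short of the call without the P42 pool (log2 fold change 0.98). Cd46, Cxcl10, Cxcl12 and Cxcl16 fell short of the call without the first P56 pool (log2 fold change 2.15, 1.18, 1.25 and 1.06). Cd46, Cxcl10, Cxcl12 and Cxcl16 fell short of the call without the second P56 pool (log2 fold change 2.15, 1.47, 1.45 and 1.13). Calls also fell away in barcodes under 1% of non-epithelial markers for Cxcl12 (log2 fold change 0.83), and without a scaling factor for Cxcl12 (log2 fold change 1.05).

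Macrophage markers (9 tested, median 0.50), T cell markers (8, -0.44), basal markers (8, 0.41), clear markers (6, -0.28), Schwann markers (3, 0.55), mesothelial markers (4, -0.01) and the single adipocyte marker tested (1.13) gave no call by edgeR with all pools, with 3 genes at an unadjusted p under 0.05 among them, and DESeq2 called 1 basal and 1 mesothelial marker risen. Without the P42 pool, edgeR called 5 of 8 basal markers risen (median 1.26) and 2 of 8 T cell markers fallen. It also called the adipocyte marker risen and, of 3 mesothelial markers, 1 risen and 1 fallen. Of all genes, 7.08% rose and 11.4% fell without that pool. In barcodes under 1% of non-epithelial markers, 3 of 8 basal markers rose, where 758 of 15948 genes did. Of 8 endothelial markers 1 fell (Egfl7, median of the list -0.56), 1 of 8 principal markers fell (Rnase9, -0.13) and 2 of 5 erythroid markers fell (both globin genes, -1.92), against 5.31% of all genes. Without the P42 pool 2, 1 and 5 of them fell, and 1 principal marker rose. Most erythroid markers are globin genes, by which barcodes were limited, so their counts are not independent of that limit. It removed 356, 59 and 23 corpus and 99, 2 and 2 cauda barcodes.

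Immediate early genes, which cells switch on within minutes of a stimulus, rose in 5 cases. All 22 immediate early and heat shock genes tested had positive fold changes, 5 of them called, against 2.76% of all genes (median 0.54), and 7, 0 and 1 were called without each pool. Nr4a1, a nuclear receptor, measured 96.2, 48.7 and 72.2 CPM in the corpus and 358, 134 and 169 CPM in the cauda (log2 fold change 1.53 ± 0.19 (SE), adjusted p = 0.0195). Ier3 measured 198, 171 and 191 CPM in the corpus and 388, 441 and 504 CPM in the cauda (log2 fold change 1.25 ± 0.19 (SE), adjusted p = 0.0262), Btg2, a brake on growth, measured 639, 813 and 1049 CPM in the corpus and 1308, 1691 and 2206 CPM in the cauda (log2 fold change 1.05 ± 0.22 (SE), adjusted p = 0.0482) and the phosphatase gene Dusp1 measured 528, 104 and 97.1 CPM in the corpus and 1527, 208 and 197 CPM in the cauda (log2 fold change 1.18 ± 0.21 (SE), adjusted p = 0.0354). Of 51 genes of oxidant defence, 5 fell and 1 rose, against 5.31% and 2.76% of all genes tested (median 0.09). The glutathione transferases Gstm6 and Gstm4 and the quinone reductase Nqo1 had log2 fold changes of -2.63 ± 0.35, -1.42 ± 0.20 and -1.90 ± 0.17, and Gpx1, the general glutathione peroxidase, measured 424, 226 and 217 CPM in the corpus and 774, 514 and 463 CPM in the cauda (log2 fold change 1.05 ± 0.18 (SE), adjusted p = 0.0354). Without each pool, 7, 3 and 3 of the list fell and 6, 0 and 0 rose. Without the first P56 pool, Nr4a1, Ier3, Btg2, Dusp1, Gstm4 and Gpx1 did not pass (log2 fold change 1.54, 1.16, 1.03, 1.25, -1.45 and 0.96), and without the second P56 pool, Ier3, Btg2, Dusp1 and Gpx1 did not pass (log2 fold change 1.16, 1.03, 1.26 and 1.02). Btg2, Dusp1 and Gpx1 did not reach the call in barcodes under 1% of non-epithelial markers (log2 fold change 0.85, 0.91 and 0.89). Btg2, Dusp1 and Gpx1 did not reach the call without a scaling factor (log2 fold change 0.87, 0.997 and 0.86). Btg2 did not reach the call without barcodes of 1% or more sperm markers (log2 fold change 1.03).

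Of 85 nuclear genes of the respiratory chain, 4 fell, a share near the 5.31% of all genes tested (median -0.06), which were Cycs (cytochrome c) with 403, 752 and 762 CPM in the corpus and 118, 363 and 350.5 CPM in the cauda (log2 fold change -1.31 ± 0.23 (SE), adjusted p = 0.0352), Ndufb7 (-1.03 ± 0.17) and the germ cell subunits Cox8c (-5.58 ± 0.42) and Cox7b2 (-5.66 ± 0.42). Of 83 cytosolic ribosomal protein genes, 3 fell, also near that share (median 0.20), and all 3 were variants of general subunits. Rpl3l, a variant of muscle, measured 16.5, 34.7 and 34.5 CPM in the corpus and 2.88, 9.45 and 8 CPM in the cauda (log2 fold change -2.15 ± 0.19 (SE), adjusted p = 0.0127). Rpl39l, a variant of germ cells, had a log2 fold change of -4.39 ± 0.82, and Rpl10l, another of germ cells, was at 68 UMIs in the corpus and 0 in the cauda, at least 27.2-fold lower against a limit of 3 UMIs over the cauda libraries. All 12 sperm markers were lower in the cauda, 4 of them called against 5.31% of all genes (Akap4, Gapdhs, Ldhc and Tnp1, median -3.00). All 12 were called without the P42 pool. After leaving out 84, 45 and 32 corpus and 38, 1 and 0 cauda barcodes with 1% or more of sperm markers, Cox8c and Cox7b2 were still called (log2 fold changes -4.57 and -4.66), Rpl39l was not (-3.53) and Rpl10l was too low to test. Cycs, Ndufb7 and Rpl3l were still called without those barcodes (log2 fold changes -1.33, -1.05 and -2.18). In the same sums, 422 of the 452 and 728 of the 869 genes remained called. Rpl10l was also not called without the second P56 pool. The call was lost for Ndufb7 without the P42 pool (log2 fold change -0.98), and for Cycs, Ndufb7 and Rpl39l without the first P56 pool (log2 fold change -1.47, -1.11 and -4.06), and for Cycs, Ndufb7 and Rpl39l without the second P56 pool (log2 fold change -1.42, -1.04 and -3.71). In barcodes under 1% of non-epithelial markers, Ndufb7 was not called (log2 fold change -0.91) and Rpl10l was too low to test.

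Of 23 cell cycle genes, 21 had lower values in the cauda, 2 of them called, against 5.31% of all genes (median -0.71). Ccnb2, a mitotic cyclin, measured 28.4, 8.16 and 6.98 CPM in the corpus and 8.2, 2.88 and 2.75 CPM in the cauda (log2 fold change -1.55 ± 0.19 (SE), adjusted p = 0.0195), and Birc5 (survivin) measured 19.2, 5.27 and 6.83 CPM in the corpus and 7.03, 2.55 and 3.75 CPM in the cauda (log2 fold change -1.12 ± 0.21 (SE), adjusted p = 0.0412). The P42 corpus was the highest library for both. Birc5 missed the threshold without the P42 pool (log2 fold change -0.94), and Ccnb2 and Birc5 did so without the first P56 pool (log2 fold change -1.60 and -1.18), and Ccnb2 and Birc5 did so without the second P56 pool (log2 fold change -1.66 and -1.26). Calls also fell away in barcodes under 1% of non-epithelial markers for Birc5 (log2 fold change -0.94).

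**Figure D4:**
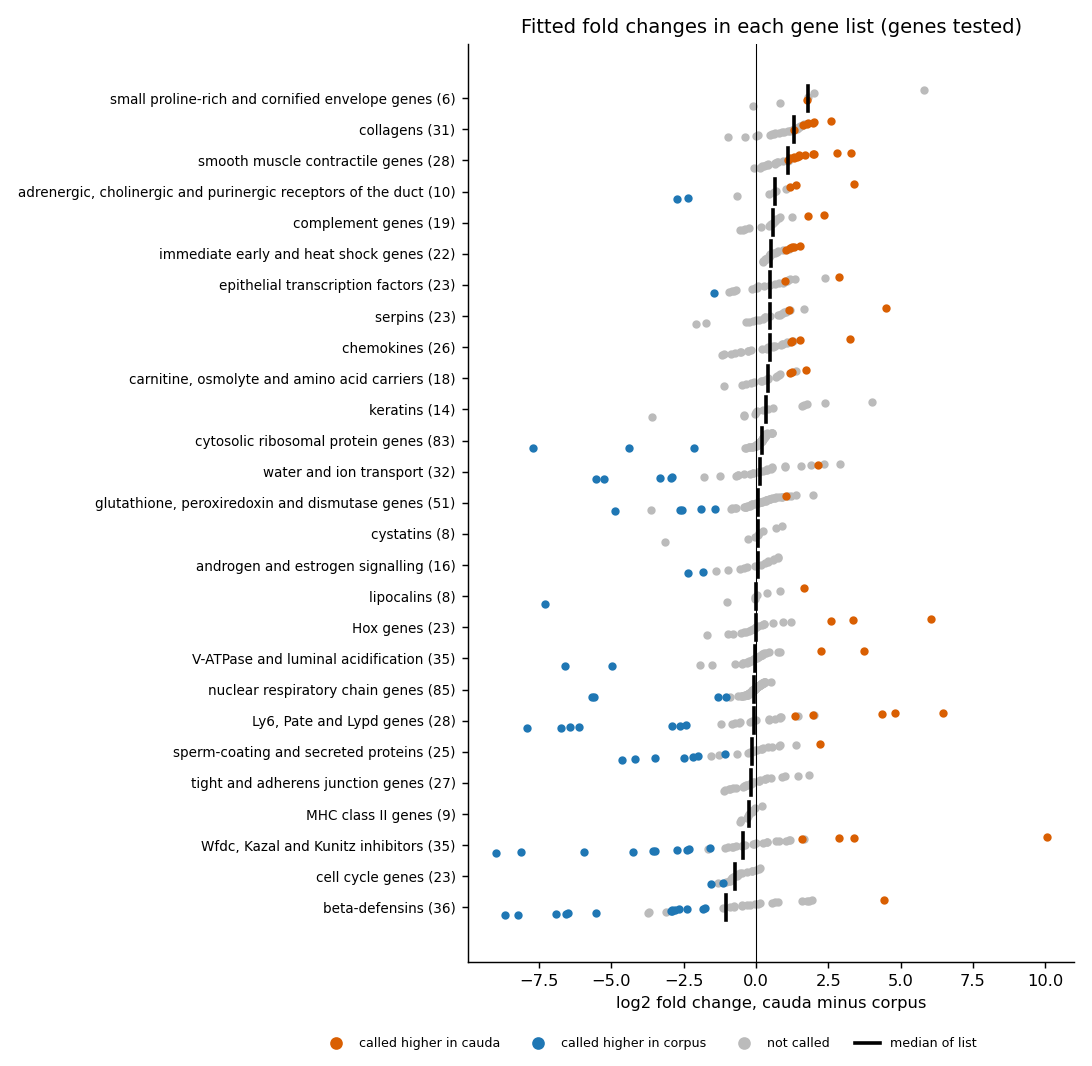
Fitted log2 fold changes (cauda minus corpus) of the tested members of the 27 gene lists, with the number tested in brackets, called genes in orange (higher in the cauda) or blue (higher in the corpus), other genes in grey and the median of each list as a black bar. Beta-defensins have the lowest median (-1.02) and cornified envelope genes the highest (1.80, 6 genes), against 0.02 over all genes tested.

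The step of the single P42 pool was set against that of the 2 P56 pools. With 1 pool at P42, its age and its other properties cannot be told apart, so the values compare these pools and not the ages. The interaction test takes its spread from the 2 P56 pools alone, so its p-values and SE hold no measure of spread at P42. The fold changes of the P56 pools exceeded that of the P42 pool in 1038 genes (6.34%) and were below it in 1523 (9.3%), by the interaction term of edgeR's test with 1 residual degree of freedom. These included 57 of the 452 genes called higher in the cauda and 76 of the 869 called higher in the corpus. When only barcodes with under 1% of non-epithelial markers were summed, 360 genes differed in place of 2561. The stromal markers of the P42 cauda moved with this difference, and their part in it was not tested gene by gene.

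Among the steps higher in the P56 pools, Sprr1a, a precursor of the cornified envelope, was lower in the cauda of the P42 pool and higher in that of both P56 pools, with 2.18, 10.6 and 16.7 CPM in the corpus and 0.293, 76 and 136 CPM in the cauda (log2 difference 5.80 ± 0.37, SE, adjusted p = 0.00269). Mmp7, the metalloprotease matrilysin, measured 14.1, 9.25 and 13.8 CPM in the corpus and 16.6, 252 and 217 CPM in the cauda (difference 4.13 ± 0.34, adjusted p = 0.00284), with cauda and corpus close together at P42. Svs4, a seminal vesicle secretory protein, measured 1.42, 0.746 and 1.27 CPM in the corpus and 5.62, 51.1 and 59.97 CPM in the cauda (difference 3.80 ± 0.38, adjusted p = 0.00352). Cryba4 rose in all 3 pools, more in the P56 pools (difference 4.21 ± 0.34, adjusted p = 0.00284). In all 4 the P42 cauda was far below both P56 caudas.

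Of the 4 genes named for a step that was higher in the P42 pool, 3 were antibody genes, whose corpus values differed widely. Igkc, the kappa light chain, measured 17.1, 182 and 117 CPM in the corpus and 15.3, 0.125 and 4 CPM in the cauda (difference -6.01 ± 1.16, adjusted p = 0.0172). Jchain, which joins secreted antibodies, measured 0.189, 53.3 and 9.73 CPM in the corpus and 3.32, 0.293 and 0.313 CPM in the cauda (difference -10.57 ± 0.85, adjusted p = 0.00284). Iglc1 was at 0 UMIs in both P56 caudas and had 1.18, 151 and 1.99 CPM in the corpus and 6.25 CPM in the P42 cauda, so its fitted difference is no bound. A single corpus library, that of the first P56 pool, held most of the Iglc1 and Jchain. Cma1, a mast cell chymase, measured 13.5, 3.23 and 2.14 CPM in the corpus and 67.7, 0.627 and 0.139 CPM in the cauda (difference -5.18 ± 0.41, adjusted p = 0.00284), with the highest value in the P42 cauda.

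**Figure D5:**
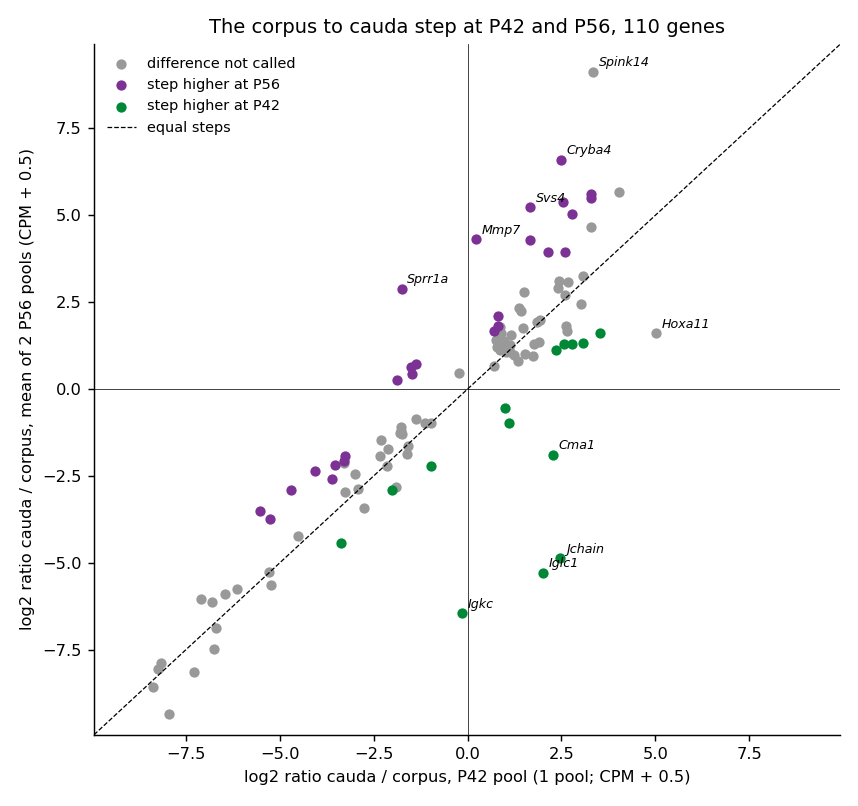
Log2 ratio of cauda to corpus (CPM + 0.5) of the 110 named genes in the P42 pool (horizontal axis, 1 pool) and as the mean of the 2 P56 pools (vertical axis), with the dashed line for equal steps and colours for genes whose step differed by the interaction term. Sprr1a, Mmp7, Svs4 and Cryba4 lie above the line and Iglc1, Jchain, Igkc and Cma1 below it.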

How the data were processed

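Single-cell libraries of caput, corpus and cauda were made from 1 pool of 5 mice at P42 and 2 pools of 5 at P56. The deposited values are UMI counts per gene and barcode, which the authors obtained with UMI-tools and STAR 2.7.3a on GRCm38.p6, counting exons. The table holds 32195 genes, of which 16 mitochondrial genes were left out here.

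UMIs were summed per library over barcodes within the limits, with 16438118 to 34426402 nuclear UMIs per corpus or cauda library. No doublet caller was run. Genes passing filterByExpr were tested with edgeR 4.0.16 (R 4.3.3, quasi-likelihood, TMM, Benjamini-Hochberg) on counts as deposited, with the pool as block. A call needed a change of at least 1 on the log2 scale with an adjusted p under 0.05. The p-values of the test of segments measure the spread of the step between pools. Those of the interaction term take it from the 2 P56 pools alone and hold no measure of spread at P42. The pairing comes from the shared animals. Deviations from the segment means correlated at 0.784, 0.563 and 0.728 within pools. Across the 2 P56 pools they correlated at 0.474 and 0.649, and across the P42 pool and a P56 pool at -0.737 to -0.55. These values set the P42 pool apart from the P56 pools and do not by themselves show the sharing of animals. On simulated counts for this comparison, 190 of 200 genes changed by a log2 of 2 were called among 16377, with 8 false calls. The simulated step was the same in every pool and all genes shared 1 dispersion. The recovery therefore does not give the power for genes whose step differs between pools, as many did here. DESeq2 1.42.0, other scalings, filters, thinning, barcode limits and leaving out each pool were alternatives. Leaving out sperm-marker barcodes was added after seeing the data.

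Named genes were the 15 called genes with the largest fold change per direction (same direction in every pool, at least 50.0 CPM in the higher segment), up to 4 called genes per list by mean CPM (2 tested genes where none was called), and 4 per direction of the P42 pool against the P56 pools. Other list members were named after their values were seen. The members and the 27 function and 13 marker lists were chosen with earlier results of these data known, and unrelated genes and pseudogenes that name patterns had caught were taken out of 3 lists after results were seen. Promoters came from RefSeq on GRCm38.p6. A few genes that the rule names are not reported here.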

Additional observations from a re-analysis of the deposited data

Results flagged for a closer look

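The step from corpus to cauda in the single P42 pool was set against that in the 2 P56 pools, and 2561 genes passed the interaction term of edgeR's test (adjusted p under 0.05 and a log2 difference of at least 1) with 1 residual degree of freedom. The count was 1164 by DESeq2 and 360 in barcodes under 1% of non-epithelial markers. With 1 pool at P42, its age and its other properties cannot be told apart. The values below are log2 differences of the step, P56 minus P42, for genes named among them. Among the genes with the largest rise, the differences were 4.21 for Cryba4, 2.29 for Klk1b27, 2.21 for Pate6, 2.84 for Serpine2, 2.16 for S100a8, 2.77 for Ptgs2, 1.34 for Id1 and 1.80 for Spink5. Among the beta-defensins, inhibitors and secreted proteins, the differences were 1.52 for Wfdc13, 1.32 for Defb37, 1.02 for Defb39, 1.27 for Lcn12, 1.75 for Pate2, 1.81 for Bsph2, 2.05 for Rnase9 and 1.28 for Crisp4. Among the epithelial keratin and junction genes, the differences were 2.10 for Krt8, 2.16 for Krt18, 2.14 for Epcam and 1.92 for Cldn7. Other genes with a step that was higher in the P56 pools were those with differences of 1.05 for Cxcl10, 1.37 for Gstm6, 5.80 for Sprr1a, 4.13 for Mmp7 and 3.80 for Svs4. Below 0, and so higher in the P42 pool, among genes of the stroma and of immune cells, the differences were -1.25 for Col6a1, -1.66 for Col6a2, -1.17 for Col4a5, -1.54 for Cd74, -2.07 for H2-Aa, -16.00 for Iglc1, -10.57 for Jchain, -6.01 for Igkc and -5.18 for Cma1. Likewise below 0 were those with differences of -2.00 for Kcnj16, -1.69 for Hoxa10, -1.24 for Srd5a1 and -3.71 for Rpl39l. Iglc1 had no UMI in either P56 cauda, so its value is no bound. No group held 4 or more libraries, so Dixon's test of a library far from its group was not applied. The P42 cauda library is described by its marker values only.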

How the results depend on the processing

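The pool served as a replicate block. With no replicate block, 77 genes were higher in the cauda and 374 in the corpus, against 452 and 869. Leaving out each pool in turn gave 113 to 1187 and 360 to 1911. DESeq2 gave 792 genes higher in the cauda, testing without a low-count filter gave 970 and 1630, and barcodes under 1% of non-epithelial markers gave 758. For the P42 pool against the P56 pools, DESeq2 gave 1164 and the barcodes under 1% gave 360, against 2561. The other settings moved these counts by less than 1.5 times. That comparison could not be run without replicate 1 or replicate 2, since each leaves 1 P56 pool and no residual degree of freedom. The causes were not tested.

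Without a scaling factor the median over all genes was -0.167 and 22.6% of the calls were higher in the cauda, against 34.2%. With no replicate block that share was 17.1%, and without the first P56 pool it was 19.8%.

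Of the values of named genes under these settings, 1400 kept their direction and side of the threshold, 209 lost the call, 12 gained it and 21 changed sign, all in 7 genes that were not called. With no replicate block, Krt18 came to 0.00436, Epcam to 0.297, Cldn7 to 0.204, Cd74 to 0.633, H2-Aa to 0.695 and Cma1 to 1.85. Krt8 came to -0.147 without a scaling factor. With all 9 libraries Epcam came to 0.0969 and Cd74 to 0.0719, and in barcodes under 1% Epcam, Cldn7 and Cd74 came to 0.249, 0.171 and 0.133. Leaving out each pool in turn gave -0.398 to 0.721 for Krt8, -0.875 to 0.266 for Krt18, -0.511 to 0.636 for Epcam, -0.573 to 0.445 for Cldn7, -0.531 to 0.44 for Cd74, -0.962 to 0.283 for H2-Aa and -2.88 to 0.299 for Cma1.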
